A study of Arabidopsis thaliana with 18 samples.

Results

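The stress response of rrp6l1-2 seedlings was set against that of wild type, gene by gene, as the change from control to stress in the mutant minus the same change in wild type on the log2 scale. A value of 0 means an equal response, and a value of 1 means that stress over control was 2-fold higher in the mutant. The comparison rests on 12 of the 18 poly(A) RNA-seq libraries of the series, 3 in each of 4 groups. All 33602 loci in the files were considered, and the 22795 with enough reads were tested. Apart from that filter on low counts, loci were not selected by their values.

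The groups were Arabidopsis thaliana seedlings of wild type (WT, accession Col-0) and of the mutant rrp6l1-2, each at a control water potential of -0.25 MPa or under stress at -0.7 MPa. Stress was imposed by transfer to agar infused with the osmolyte polyethylene glycol (PEG). Whole seedlings were collected 96 h after transfer, at an age of 11 days, and the design text calls the 3 sets of samples independent biological experiments. All were grown without added sugar. The mutant is 1 line, with no other allele or rescued line among the samples. The remaining 6 libraries are of the mutant ahl10-1 at the same treatments. They entered the same fit and otherwise served only to choose stress-responsive genes by their change in ahl10-1. The 12 libraries compared here still bear on that choice through the shared scaling, filter and estimate of spread.

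RRP6L1 belongs to the RRP6 family, whose founding member in yeast is an exonuclease of the nuclear RNA exosome, the complex that trims and degrades RNA. Plants have several RRP6-like proteins, and RRP6L1 is known in Arabidopsis for roles in RNA-directed DNA methylation and in noncoding RNA. Low water potential raises abscisic acid (ABA), which is perceived by PYR/PYL receptors. These block clade A PP2C phosphatases, so that SnRK2 kinases can activate ABA-responsive transcription. Seedlings under such stress also build up proline as a protective solute, through the synthesis enzyme P5CS1 and lower use of the breakdown enzyme PRODH1.

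The 12 libraries held 57996104 to 68555138 reads assigned to genes, with at least 1 read in 24202 to 24740 genes each. Levels are given as CPM, reads of a gene scaled to the TMM-adjusted library total, and a count of 0 allows up to 3 reads, or 0.0438 to 0.0517 CPM, for counting error only. Treatment separated the libraries on the first principal component (51.4% of the variance) and genotype on the second (10.8%). The 28 genes of the photosynthesis list were all tested and summed to between 65380 and 120500 CPM, and root hair genes, 16 of 16 tested, to between 71.8 and 197.8 CPM, so both green and root tissue were represented. Pollen and stamen genes summed to 14.7 to 19.1 CPM, with 5 of 10 tested.

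RRP6L1 itself (AT1G54440, chromosome 1, 20322964 to 20328238 in TAIR10.1) was low in every rrp6l1-2 library. At control it was at 27.5, 28.04 and 25.3 CPM in WT and at 5.63, 7.09 and 8.97 CPM in rrp6l1-2. At stress it was at 27.9, 29.1 and 28.01 CPM in WT and at 3.67, 5.09 and 6.44 CPM in rrp6l1-2. The mutant and WT ranges did not overlap. The difference in response was -0.59 ± 0.22 (SE; 95% interval -1.06 to -0.11; unadjusted p = 0.0184), which was not called. Values after ± are SEs throughout unless named as SDs. Which part of the transcript the remaining reads come from cannot be told from counts per gene.

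Most genes that responded to low water potential in 1 genotype moved in the same direction in the other, and no gene's response was called different between them. At an adjusted p under 0.05 (edgeR quasi-likelihood test, Benjamini-Hochberg adjustment over all genes tested), 0 of 22795 genes were called for the difference, or 0%, and the lowest adjusted p was 0.9999979. At an unadjusted p under 0.05 there were 383 genes, or 1.68%, of which 231 (1.01%) had the higher response in rrp6l1-2 and 152 (0.667%) the lower. That share lies below the 5% that the threshold itself would give if no gene differed, and 43.3% of all p-values lay under 0.5. The p-values of this fit thus ran high, and the cause was not tested. The low share is therefore no sign that the responses are equal. With DESeq2 475 genes and with limma voom 362 had an unadjusted p under 0.05. DESeq2 called 1 gene, AT2G07707, from which no fold can be read because rrp6l1-2 had 0 reads at control in all 3 libraries. In WT that gene was at 0, 2.24 and 1.91 CPM at control, and at 0, 2.91 and 0 CPM at stress.

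The stress response itself was broad in each genotype. Stress changed 5941 genes in WT (26.1% of those tested) and 6733 in rrp6l1-2 (29.5%). Both lists held 4623 genes, 77.8% of the WT list and 68.7% of the mutant list, and all 4623 moved in the same direction. Of the 1318 genes called in WT alone, 98.3% had the same direction in rrp6l1-2, and of the 2110 called in rrp6l1-2 alone, 97.6% had the same direction in WT. Across the 22795 genes the responses of the genotypes, which share no library, had a Pearson r of 0.858 and a Spearman rho of 0.829. Genes are not independent replicates, so these coefficients are a description.

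**Figure D1:**
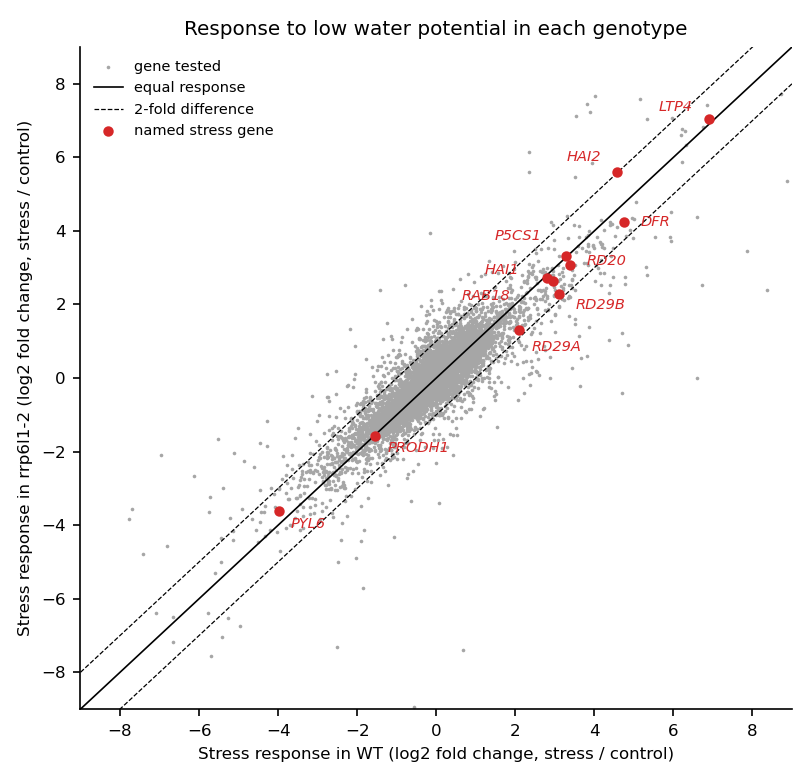
Stress response of each gene tested in WT (horizontal axis, log2 fold change of stress over control) and in rrp6l1-2 (vertical axis, same scale), with 4 genes outside the limits of 9 log2 units. The points follow the line of equal response, P5CS1 (3.28 in WT and 3.31 in rrp6l1-2) lies on it, RD29A lies below it and HAI2 above it.

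The size of the response differed little on average. Among the 6861 genes that responded to stress in ahl10-1 (30.1% of those tested), the median response in the direction seen in ahl10-1 was 0.45 in WT and 0.46 in rrp6l1-2 on the log2 scale. The median difference between the genotypes was -0.0034. Computed from the libraries that carry the same replicate number, it was -0.025, -0.037 and 0.053, an SD of 0.049, so it was smaller than the spread between the numbers. The response was larger in rrp6l1-2 for 49.2% of these genes, and both genotypes moved in the same direction for 98.8%. Among the 1723 genes that changed at least 2-fold in ahl10-1, the medians were 1.42 in WT and 1.37 in rrp6l1-2 and 40.8% were larger in rrp6l1-2. The median difference there was -0.087, against -0.17, -0.095 and 0.059 for the 3 replicate numbers (SD 0.12).

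The intervals show which differences the fit of 18 libraries, without a replicate block, could have revealed. The median absolute difference was 0.10 and the median standard error (SE) 0.17 on the log2 scale, giving a typical 95% interval of 0.35 to either side. For 18017 genes, 79.0% of those tested, the whole interval lay within a 2-fold difference, and for 13922 (61.1%) within a 1.5-fold difference. A further 52 genes had no interval because at least 1 of the 4 groups had 0 reads. At the median SE a lone gene would have needed a difference of 1.18 log2 units to be called.

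Precision followed abundance. Between 10 and 100 CPM, 95.9% of 12011 genes had an interval within 2-fold, and at 100 CPM or more 96.3% of 1822 did. Between 1 and 10 CPM the share within 2-fold was 74.7% of 6189 genes, and under 1 CPM 4.47% of 2773 genes. The share within 1.5-fold was 85.6% between 10 and 100 CPM and 80.6% at 100 CPM or more, with median SEs of 0.12 and 0.13. Differences of at least 2-fold were estimated for 560 genes (2.46%), 459 of them under 1 CPM and 3 at 100 CPM or more. The size a lone gene would have needed at the median SE was 4.95 log2 units under 1 CPM, 1.82 between 1 and 10 CPM, 0.87 between 10 and 100 CPM and 0.96 at 100 CPM or more. A 2-fold difference in a lone gene was therefore not callable for the typical gene under 10 CPM with this fit of these libraries, and was at its limit above.

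**Figure D2:**
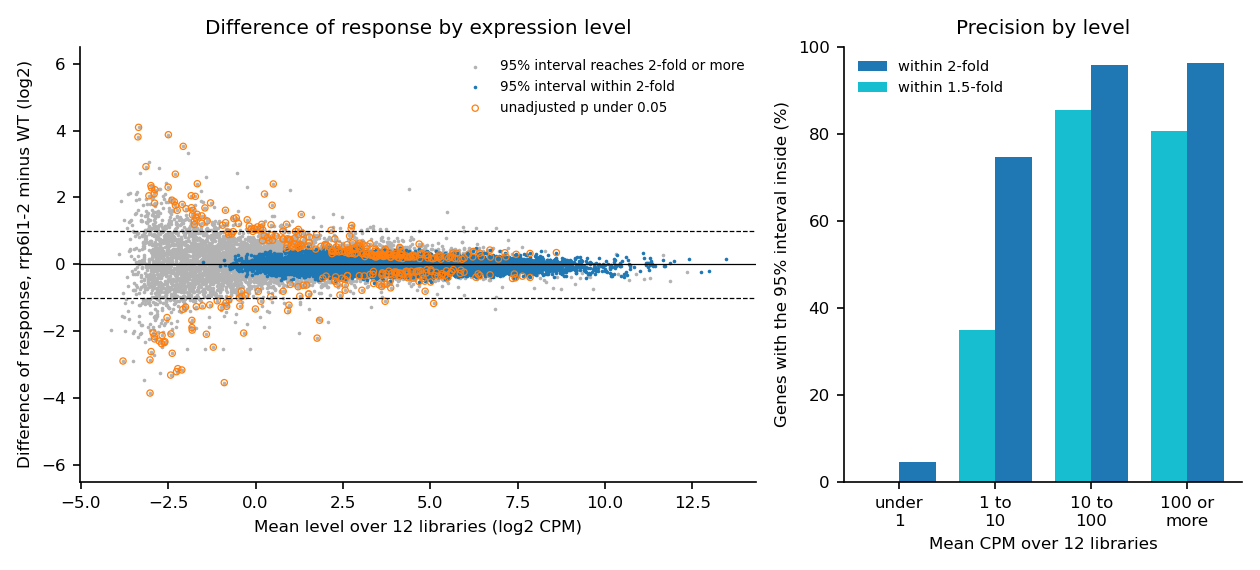
Difference of response against mean level over the 12 libraries (left, log2 scale on both axes, 1 point per gene, 52 genes with no interval left out) and the percentage of genes whose 95% interval stays within 1.5-fold or 2-fold (right, by mean CPM). The points narrow from the lowest levels upward, and the share within 2-fold goes from 4.47% under 1 CPM to 96.3% at 100 CPM or more. The share within 1.5-fold is highest between 10 and 100 CPM, at 85.6%.

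Around RRP6L1, the dehydrin gene AT1G54410 had an estimated difference of 2.25 ± 1.16 that rested on 1 library. At control rrp6l1-2 was at 0.494, 0.478 and 0.656 CPM, where WT was at 597.8, 542.4 and 567.1 CPM. At stress the mutant was at 0.459, 0.231 and 7.66 CPM, where WT was at 602, 607 and 634 CPM. Without rrp6l1-2 stress replicate 3 the difference was -0.76. AT1G54400, annotated as an HSP20-like chaperone, had 0 reads in rrp6l1-2 at both treatments against 106 and 149 reads over the WT control and stress libraries, so no response can be given for the mutant. AT1G54410 and AT1G54400 were both called lower in rrp6l1-2 than in WT at both treatments. For AT1G54410 the log2 difference was -10.03 at control and -7.789 at stress, against -1.898 and -2.485 for RRP6L1. With 1 mutant line, which of these genes a difference between the genotypes goes with was not tested. The calcium-binding protein gene AT1G54450 differed by -0.051 ± 0.16 in response, ING2 by 0.047 ± 0.093 and AT1G54460 by 0.069 ± 0.095. XRN4, a cytoplasmic exoribonuclease encoded nearby, differed by 0.12 ± 0.082. The disease resistance gene RPP27 differed by -0.88 ± 0.55.

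The proline genes rose and fell by like amounts in both genotypes. P5CS1, which makes the proline precursor, was at 80.9, 61.4 and 77.5 CPM in WT control and 726, 768 and 637 CPM in WT stress libraries. In rrp6l1-2 it was at 81.8, 66.3 and 76.9 CPM at control and 818, 696 and 722 CPM at stress. The stress groups overlap each other, as do the control groups. The rise was 3.28 ± 0.13 in WT and 3.31 ± 0.13 in rrp6l1-2 (adjusted p = 2.27e-09 and 1.97e-09), and the difference, 0.036 ± 0.18, had a 95% interval of -0.35 to 0.43. PRODH1, the first enzyme of proline breakdown, fell by 1.54 ± 0.22 in WT and by 1.57 ± 0.22 in rrp6l1-2, a difference of -0.023 ± 0.31. All 9 genes of the proline list had intervals within 2-fold, with differences from -0.061 to 0.22. P5CR, the second enzyme of synthesis, differed by 0.15 ± 0.12, and PRODH2, the minor breakdown isoform, by 0.22 ± 0.26.

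ABA-responsive genes rose in both genotypes. Of the 24 genes of the dehydration and ABA-induced list, 19 rose in WT and 18 in rrp6l1-2, with 0 falling in either, against 12.6% and 14.9% of all genes tested that rose. None was called for the difference. The list's median difference was -0.047, with 10 members above 0 and 14 below, and it ran from -0.18 without WT stress replicate 3 to 0.051 without WT stress replicate 2. The median over all genes tested was 0.016. For 16 of the 24 the interval stayed within 2-fold.

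The upstream windows of 4 of these stress genes are shown because their genes all rose in both genotypes while the motifs they hold differ. Each gives the 200 bases before the annotated gene start in the RefSeq annotation of TAIR10.1, 5′ to 3′ on the gene's strand, and capitals mark ACGTGNC, the core of the ABA-responsive element, and ACCGAC, the core of the dehydration-responsive element, on either strand. RD29A is at chr5:21240517-21240716 (plus strand), RD29B at chr5:21236821-21237020 (plus strand), HAI2 at chr1:2282829-2283028 (minus strand) and P5CS1 at chr2:16603320-16603519 (minus strand).
RD29A: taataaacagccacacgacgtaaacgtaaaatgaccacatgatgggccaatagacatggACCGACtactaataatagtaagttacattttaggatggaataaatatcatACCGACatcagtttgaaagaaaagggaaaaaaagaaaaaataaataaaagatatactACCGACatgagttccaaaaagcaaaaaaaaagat
RD29B: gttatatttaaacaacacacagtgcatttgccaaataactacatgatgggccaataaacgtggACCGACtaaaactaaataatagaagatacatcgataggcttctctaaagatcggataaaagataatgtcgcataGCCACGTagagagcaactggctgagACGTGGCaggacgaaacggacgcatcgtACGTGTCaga
HAI2: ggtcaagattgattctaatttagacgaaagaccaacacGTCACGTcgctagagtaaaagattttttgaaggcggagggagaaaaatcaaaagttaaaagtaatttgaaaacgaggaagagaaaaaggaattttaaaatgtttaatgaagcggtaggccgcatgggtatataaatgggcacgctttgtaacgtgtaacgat
P5CS1: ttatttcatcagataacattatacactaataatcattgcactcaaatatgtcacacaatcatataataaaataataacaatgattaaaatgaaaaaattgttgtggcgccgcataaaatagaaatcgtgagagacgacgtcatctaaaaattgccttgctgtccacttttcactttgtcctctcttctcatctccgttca
The RD29A window has 3 matches to ACCGAC and 0 to ACGTGNC, RD29B has 1 and 3, HAI2 has 0 and 1, and P5CS1 has 0 and 0. Each window ends at the annotated gene start. A count of 0 therefore covers these 200 bases alone, and does not show that the promoter lacks the motif on either side of them.

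Across all genes the difference in response was near 0 with and without these motifs. ACGTGNC was found in 8.39% of the windows of the 22554 tested genes with a window, in 11.9% of the 2241 that rose in both genotypes and in 6.87% of the 2358 that fell in both. ACCGAC was found in 4.31%, 5.35% and 3.1% of these sets. Among genes that rose in both and hold ACGTGNC, the median response was 0.56 in WT and 0.56 in rrp6l1-2, with a median difference of -0.0086, against 0.0044 for those without it. AATATCT, the evening element of clock-regulated promoters, was in 8.14% of all windows, with a median difference of 0.014 against 0.016 without it. GGCCCA, a short element common in Arabidopsis promoters, was in 14.6%, with 0.019 against 0.016. The motifs were searched on both strands and counted separately, none contains another, and 0 genes with any of the 4 were called for the difference. A match is a description of the sequence.

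RD29A, a classic dehydration marker of unknown biochemical function, had the smallest p of its list. It was at 13.4, 9.87 and 13.3 CPM in WT at control and at 24.0, 19.4 and 20.4 CPM in rrp6l1-2 at control. At stress it was at 55.5, 53.3 and 48.5 CPM in WT and at 67.1, 48.8 and 41.5 CPM in rrp6l1-2. The control libraries of the genotypes did not overlap, while the stress libraries did. It rose by 2.11 ± 0.21 in WT and by 1.302 ± 0.21 in rrp6l1-2. The difference of -0.80 ± 0.29 (interval -1.43 to -0.18, unadjusted p = 0.0151) was not called. It was below 0 for each of the 3 replicate numbers, which rest on the same libraries as the p and are no separate test. Groups apart at control and overlapping at stress recur below among genes named for a small p on their list. That p rests on the same libraries, and choosing by it favours such a pattern. The share of all genes with this pattern was not counted, so it is a description here and below.

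RD22, a BURP-domain gene induced by dehydration, had a like pattern. It was at 119.6, 134 and 119 CPM in WT and 183, 155 and 186 CPM in rrp6l1-2 at control, and at 210.0, 204 and 176 CPM and 220.4, 220.4 and 185 CPM at stress. Again the genotypes were apart at control and overlapped at stress. The difference in response was -0.40 ± 0.17 (unadjusted p = 0.0278).

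Of its 24 genes, the list held 3 at an unadjusted p under 0.05, all with the lower response in rrp6l1-2, RD29A and RD22 among them. Of all genes tested 0.667% had such a p and the lower response. The list's median difference was -0.047. Differences on the list ran from -1.67 to 0.28, so the most negative was further from 0 than that of RD29A. The further markers named here rose with differences smaller than or near their SE. RD29B, the tandem neighbour of RD29A, rose by 3.102 ± 0.50 in WT and 2.28 ± 0.50 in rrp6l1-2, and its difference of -0.82 ± 0.70 had an interval of -2.33 to 0.69. RD20, a caleosin of lipid droplets, differed by -0.30 ± 0.24, the dehydrin RAB18 by -0.31 ± 0.61 and the homeobox factor HB7 by -0.20 ± 0.17. The lipid transfer protein gene LTP4 rose by 6.90 ± 0.54 in WT and 7.03 ± 0.59 in rrp6l1-2. Its difference of 0.13 ± 0.80 turned to -0.92 without WT control replicate 2, which held 1.398 CPM where the other WT control libraries held 0.152 and 0.502.

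Among the negative regulators and receptors of ABA signalling no gene was called for the difference. Of 9 clade A PP2C genes, 7 rose in each genotype, against 12.6% of all genes tested in WT and 14.9% in rrp6l1-2, and 6 of the 9 intervals of the difference were within 2-fold. HAI2, a highly ABA-induced phosphatase, was at 0.682, 0.592 and 0.518 CPM in WT at control and 0.265, 0.255 and 0.237 CPM in rrp6l1-2 at control. At stress it was at 14.2, 16.5 and 11.8 CPM in WT and 15.5, 14.0 and 7.68 CPM in rrp6l1-2. The control libraries did not overlap, with the mutant lower, and the stress libraries did.

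HAI2 rose by 4.56 ± 0.28 in WT and by 5.61 ± 0.35 in rrp6l1-2, a difference of 1.05 ± 0.45 (interval 0.091 to 2.00, unadjusted p = 0.0313). With limma on log2(RPKM + 0.5) the difference was 0.10, on a scale that understates changes of genes this low. HAI1 differed by -0.11 ± 0.38 and ABI2 by -0.29 ± 0.24. Of 9 ABA receptor genes, 8 fell in each genotype, against 13.4% and 14.7% of all genes tested. PYL6 changed by -3.99 ± 0.32 in WT and -3.61 ± 0.31 in rrp6l1-2, a difference of 0.38 ± 0.45, and PYL1 differed by -0.16 ± 0.17. NCED3, the rate-limiting enzyme of ABA synthesis, was not called at stress in either genotype (0.95 ± 0.40 and 0.98 ± 0.41) and differed by 0.032 ± 0.57.

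**Figure D3:**
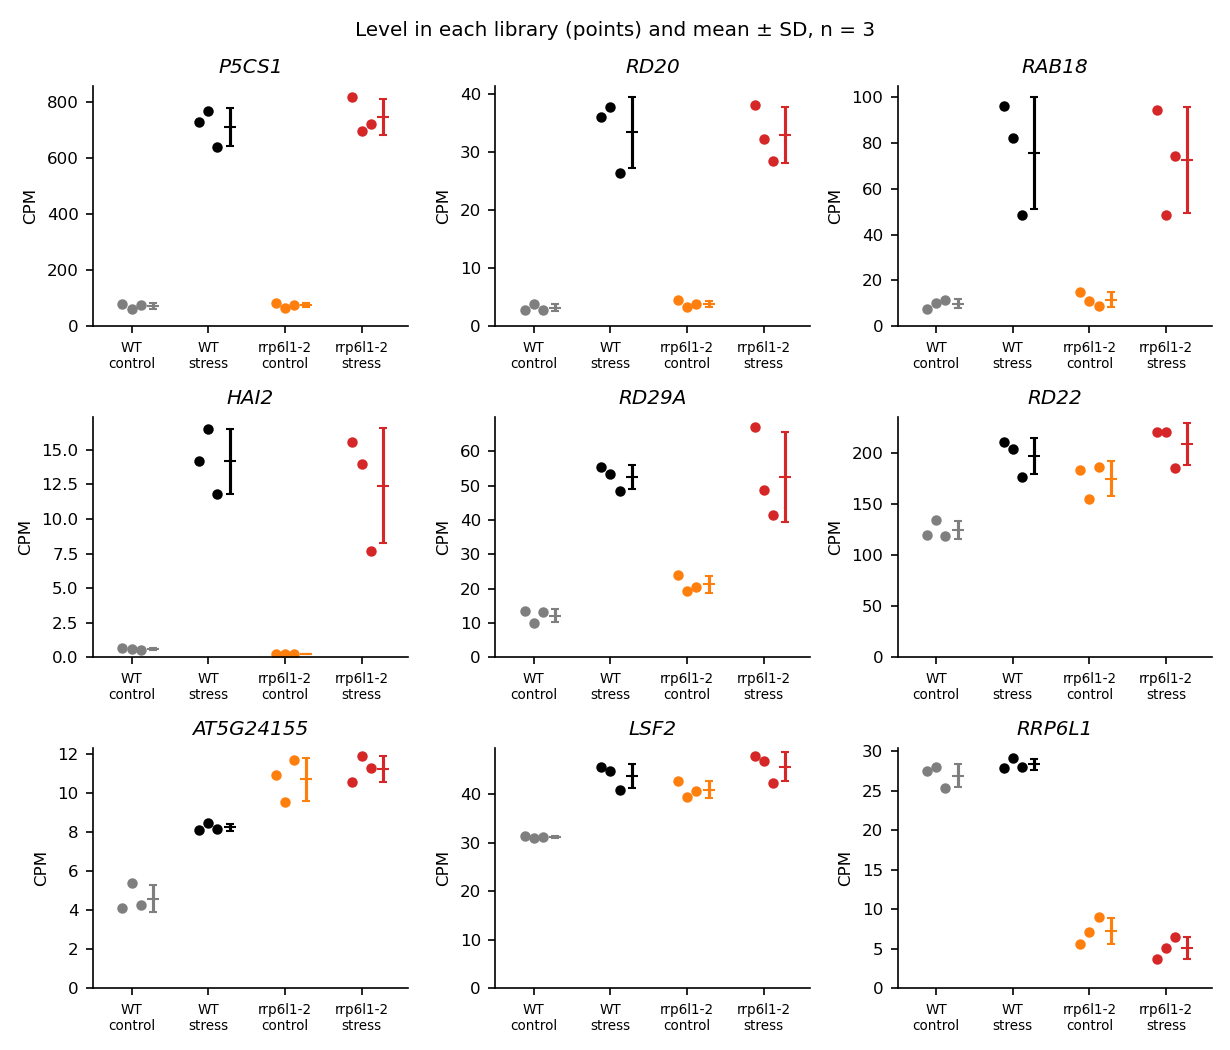
Level of 9 genes in each of the 12 libraries (points, CPM on axes from 0) with the mean ± SD of the 3 libraries of a group. P5CS1, RD20 and RAB18 reach like levels in both genotypes at both treatments, while HAI2, RD29A, RD22, AT5G24155 and LSF2 are further apart at control than at stress relative to their level. RRP6L1 is low in the mutant at both treatments.

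The genes with the smallest p-values were chosen by that p, so their values are a description. AT5G24155, annotated as an FAD/NAD(P)-binding oxidoreductase, came first. It was at 4.11, 5.39 and 4.28 CPM in WT at control and 8.13, 8.47 and 8.17 CPM in WT at stress. In rrp6l1-2 it was at 10.9, 9.53 and 11.7 CPM at control and 10.6, 11.9 and 11.3 CPM at stress. Stress raised it in WT by 0.85 ± 0.13 (adjusted p = 0.000192), and the mutant was above both WT groups at either treatment. The difference was -0.78 ± 0.18 (unadjusted p = 0.000606), and its adjusted p over the alternative analyses was 0.364 to 1.

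LSF2, a phosphatase of starch breakdown, was among the lower responses. It was at 31.4, 31.1 and 31.3 CPM in WT at control and 42.8, 39.4 and 40.6 CPM in rrp6l1-2 at control. At stress it was at 45.6, 44.9 and 41.0 CPM in WT and 47.9, 46.9 and 42.3 CPM in rrp6l1-2. The mutant at control thus lay near the stressed WT level, and the difference was -0.33 ± 0.098 (unadjusted p = 0.0039). MYB83, a master switch of secondary wall formation, went from 1.33, 1.08 and 0.894 to 2.50, 2.27 and 2.50 CPM in WT and from 1.499, 1.42 and 1.84 to 2.22, 1.88 and 1.87 CPM in rrp6l1-2. Its difference was -0.81 ± 0.24. AT3G61920, annotated as UvrABC system protein C, differed by -1.34 ± 0.39 at 0.394 to 1.61 CPM.

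Of the higher responses, AT1G48840, which encodes a protein with a domain of unknown function, had the smallest SE. It held 20.6, 20.07 and 19.9 CPM in WT at control and 20.07, 19.5 and 20.3 CPM in WT at stress. In rrp6l1-2 it held 17.9, 18.4 and 17.8 CPM at control and 21.5, 21.2 and 20.6 CPM at stress, so that only the mutant control libraries stood below all the others. Its difference was 0.25 ± 0.069 (unadjusted p = 0.00233), or well under 1.5-fold. AT4G37445, annotated as a calcium ion-binding protein, differed by 0.78 ± 0.21. AT5G37970, a methyltransferase gene, differed by 1.62 ± 0.46 with levels of 0.123 to 1.03 CPM, and AT1G51402 by 1.84 ± 0.48 with levels of 0.164 to 0.743 CPM.

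Among the 12 genes chosen this way, the larger values came from a handful of reads. ARI12, a RING-type ubiquitin ligase gene, had 106 reads over the WT control libraries and 2 over the WT stress libraries, and 53 and 18 in rrp6l1-2. AT1G26762 had 2 and 50 reads in WT and 36 and 81 in rrp6l1-2. AT3G54530 had 0 and 132 reads in WT and 18 and 104 in rrp6l1-2, so its difference has no interval. AT3G17200 had 26 and 10 reads in WT and 4 and 23.9 in rrp6l1-2.

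For most genes the genotypes were further apart at control than at stress. The absolute log2 difference between rrp6l1-2 and WT had a median of 0.13 at control and 0.081 at stress, and it was larger at control for 15416 of 22795 genes (67.6%). By replicate number the share was 55.5%, 52.9% and 66.9%. Replicates also spread more at control, with a median SD per gene of 0.13 in WT and 0.14 in rrp6l1-2 against 0.10 and 0.11 at stress, and the part of that spread in the result was not tested. Among the 383 genes at an unadjusted p under 0.05, 308 (80.4%) had the larger genotype difference at control, as 189 of the 231 higher responses and 119 of the 152 lower ones did. The 383 were picked by a p from the same libraries, of which the control ones spread more. That choice favours the outcome, so it is a description and no test.

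Fewer genes were called between the genotypes at stress than at control, and whether the counts differ was not tested. At control 48 genes were called (0.211% of those tested) and at stress 19 (0.0834%), with 17 in both. With the replicate number as a block, 148 were called at control and 17 at stress. At control 33 were higher in the mutant (0.145%) and 15 lower (0.0658%), and at stress 14 were higher (0.0614%) and 5 lower (0.0219%). The control count is the less stable, running from 16 to 1107 over the alternative analyses against 13 to 55 at stress. Of the 31 called at control alone, 29 had reads in every group, and these 29 kept their sign at stress and were smaller there, with a median absolute log2 difference of 0.59 at control and 0.31 at stress. They were picked on the same control libraries that enter the difference, which favours this outcome, so it is a description and no test. In 25 of the 31 the interval of the difference in response was within 2-fold. Of the 17 called at both treatments, 15 had reads in every group, with median absolute log2 differences of 2.61 and 2.48.

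Some genes called at both treatments have known roles. ESM1, which steers glucosinolate breakdown toward isothiocyanates, was higher in rrp6l1-2 by 1.09 at control and 1.19 at stress, a difference in response of 0.11 ± 0.20. MED8, a Mediator subunit gene, was higher by 0.39 and 0.52, a difference of 0.14 ± 0.095. Both were named after their values were seen.

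**Figure D4:**
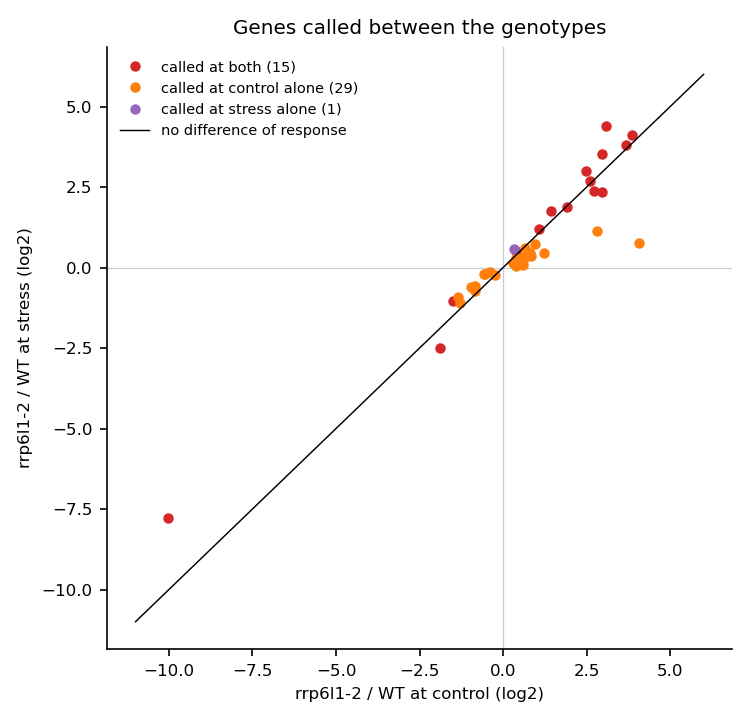
Log2 difference of rrp6l1-2 over WT at control (horizontal) and at stress (vertical) for 45 of the 50 genes called at either treatment, with the line of no difference in response and with 5 genes left out because a group had 0 reads. All 45 keep their sign, and the 29 called at control alone lie nearer to 0 at stress than at control.

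Across 40 gene lists no member was called. Of the 683 loci on the lists 664 were tested, 19 (2.86%) had an unadjusted p under 0.05 against 1.68% of all genes, and 459 (69.1%) had an interval within 2-fold against 79.0%. The median of all genes was 0.016, with 12471 genes above 0 and 10324 below.

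Touch and wound response genes had the largest positive median, 0.60, with 18 of 19 members above 0, a median SE of 0.92, and 1 interval within 2-fold. They fell in WT in 13 cases and in rrp6l1-2 in 3, with 0 rises, against 13.4% and 14.7% of all genes tested that fell. Their summed level at control was 2456, 378 and 798 CPM in WT and 918, 239.8 and 1179 CPM in rrp6l1-2, and at stress it was 244, 255 and 257 CPM in WT and 320.5, 186.5 and 243 CPM in rrp6l1-2. WT control replicate 1 was the highest library, and without it the median difference was -0.50, and without rrp6l1-2 control replicate 2, the lowest at control, 0.16. Over the alternative analyses the median ran from -0.50 to 1.09. The part of these library levels in the result was not tested. CML37, a calmodulin-like gene, was at 14.0 CPM in WT control replicate 1 and at 0.674 and 1.804 CPM in the other WT control libraries. PUB23, a ubiquitin ligase gene of this list, differed by 0.57 ± 0.39.

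The flavonoid and anthocyanin list had the lowest median, -0.47, with 13 of 16 members below 0, a median SE of 0.45 and 9 members rising in each genotype, against 12.6% and 14.9% of all genes tested. DFR, an enzyme of anthocyanin synthesis, rose by 4.75 ± 0.50 in WT and 4.24 ± 0.50 in rrp6l1-2, a difference of -0.51 ± 0.71. MYB111, an activator of flavonol synthesis, was at 3.503, 5.72 and 3.04 CPM in WT and 6.02, 7.91 and 8.79 CPM in rrp6l1-2 at control, and at 6.14, 4.71 and 4.91 CPM and 4.41, 5.65 and 5.42 CPM at stress. Its groups were apart at control and overlapped at stress, and its difference was -0.92 ± 0.36 (unadjusted p = 0.0208). GL3, a bHLH regulator of anthocyanins and trichomes, had a positive difference of 0.72 ± 0.30. The list median was -0.11 without rrp6l1-2 control replicate 3, and over the alternative analyses it ran from -0.70 to -0.11.

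Several other lists had most members on 1 side of 0 with smaller medians. Glucosinolate genes had a median of 0.15, with 19 of 20 above 0, wax and cutin genes -0.15, with 16 of 18 below 0, AHL family genes 0.11, with 22 of 25 above 0, and cell cycle genes 0.085, with 19 of 22 above 0. Auxin response and transport genes had a median of 0.14, with 24 of 29 above 0. Leaving out 1 library moved some of these medians by over 1.5 times. Without rrp6l1-2 control replicate 3 the wax and cutin median was -0.058, the cell cycle median 0.041 and the auxin median 0.049. Without rrp6l1-2 control replicate 2 the wax and cutin median was -0.23 and the AHL median 0.17, and without WT control replicate 1 the auxin median was 0.030. MYB28, the activator of aliphatic glucosinolate synthesis, differed by 0.18 ± 0.13 and the sulfotransferase SOT17 by 0.28 ± 0.21. KCS9, an elongase of wax and suberin precursors, differed by -0.29 ± 0.14 and CYP86A2, a cutin hydroxylase, by -0.23 ± 0.17. AHL7 and AHL22, AT-hook relatives of AHL10, differed by 0.48 ± 0.19 and 0.50 ± 0.23, and AHL10 itself by 0.16 ± 0.11. CDKB1;2, a mitotic kinase gene, differed by 0.32 ± 0.12. Members of a list share libraries and often move together, so these counts are not counts of independent genes.

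**Figure D5:**
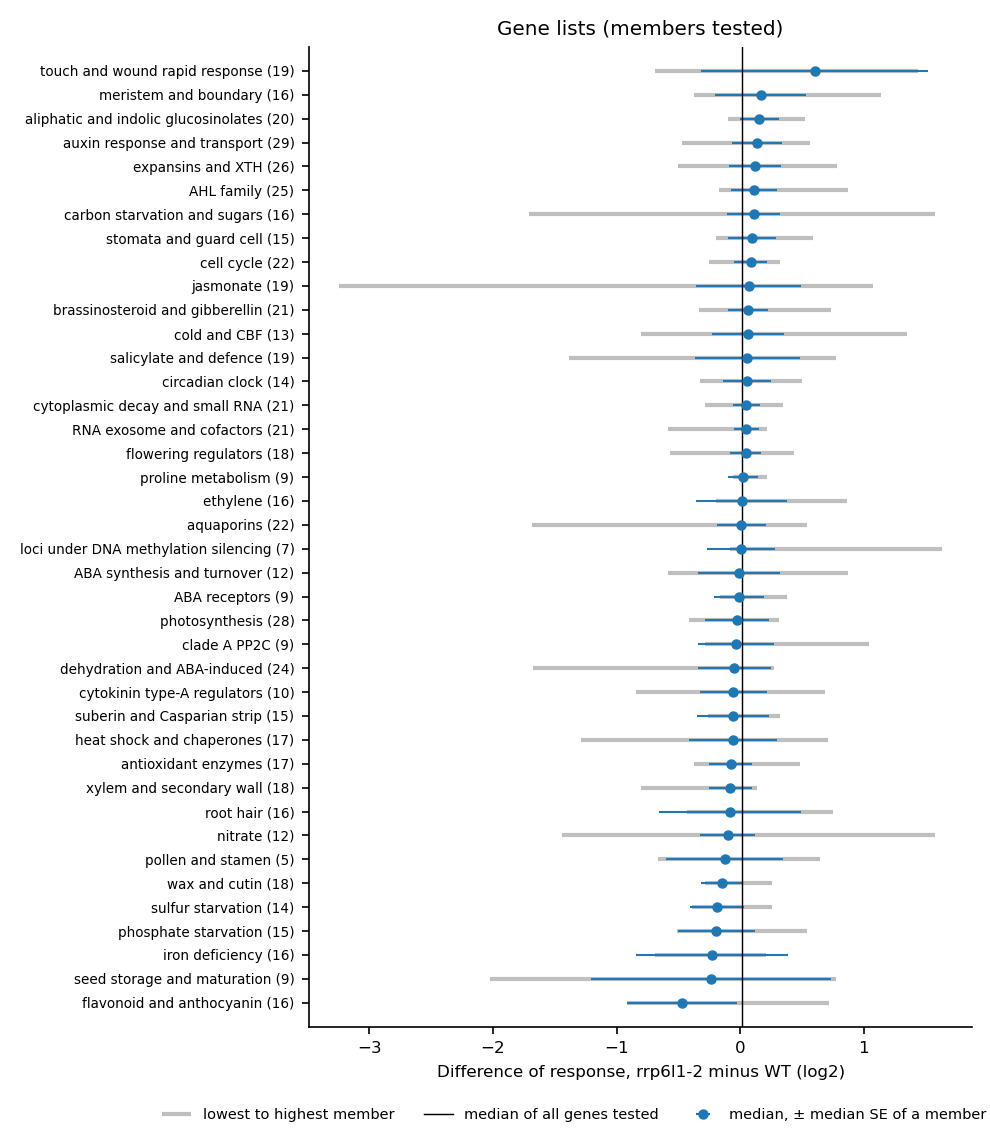
Median difference in response of the 40 gene lists (points) with ± the median SE of a member (blue bars) and the lowest and highest member (grey bars), on the log2 scale, beside the median of all genes tested (vertical line, 0.016). Medians run from -0.47 for flavonoid genes to 0.60 for touch and wound genes.

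RNA decay genes, to whose pathways RRP6L1 is linked, had small differences in response. On the exosome list 20 of 21 genes had an interval within 2-fold, the exception being RRP6L1 itself, and the median was 0.048. RRP6L2, the nucleolar RRP6-like protein, differed by 0.067 ± 0.081 and the core subunit gene RRP46 by 0.22 ± 0.14. In cytoplasmic decay and small RNA genes all 21 intervals were within 2-fold and 18 of 21 differences were above 0, with a median of 0.049 that was -0.0080 without WT stress replicate 1. RDR2, the RNA-dependent RNA polymerase of the RNA-directed DNA methylation pathway, was at 14.3, 12.9 and 13.3 CPM in WT and 11.5, 11.2 and 10.08 CPM in rrp6l1-2 at control. At stress it was at 15.6, 15 and 17.63 CPM in WT and 16.6, 16.3 and 17.0 CPM in rrp6l1-2. The mutant was lower at control with no overlap, and the groups overlapped at stress, with a difference of 0.35 ± 0.11 (unadjusted p = 0.00489). NRPD1, the largest subunit of RNA polymerase IV, differed by -0.28 ± 0.14.

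Nutrient, hormone and growth lists held few other genes at an unadjusted p under 0.05. The sulfate assimilation genes APR3 and APR2 differed by -0.29 ± 0.11 and -0.39 ± 0.18, with 12 of the 14 genes of the sulfur list below 0. APR2 was at 204, 267 and 195 CPM in WT and 342, 297 and 329.6 CPM in rrp6l1-2 at control, apart, and at 185, 199 and 189 CPM and 199, 225 and 212 CPM at stress. GOLS4, a galactinol synthase gene, differed by 0.62 ± 0.29, the stomatal protease gene SDD1 by 0.59 ± 0.26 and the boundary factor CUC3 by 1.14 ± 0.51. FLC, the repressor of flowering, differed by 0.11 ± 0.39 and was not called at stress in either genotype. Photosynthesis genes had a median of -0.024, and 24 of 28 had intervals within 2-fold.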

How the data were processed

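Poly(A) RNA-seq read counts of 18 libraries were analysed, 12 of them (WT and rrp6l1-2, control and stress, 3 each) for the comparison itself and 6 of ahl10-1 for the shared estimate of spread. Per the submitters' processing notes, the tools named were CASAVA, bcl2fastq 1.8.4, Bowtie2 and DESeq2 with the TAIR10 build, and the counting program is not given in the sources used here. Per the file headers, each library's table, deposited by the authors, gives an estimated count per gene (3.92% to 4.56% of values not whole), an RPKM value, a fraction of reads placed at several loci, and further signal columns. The authors' deposited comparison tables give log2 fold changes, p-values and a test score, and were used only as an alternative. Their log2 fold changes are shrunk toward 0 by unequal amounts. Multi-mapped reads made up 1.29% to 2.33% of the 12 libraries, so near-identical genes are uncertain, and no source states whether counting used strand.

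Estimated counts were rounded to whole numbers and fitted with edgeR 4.0.16 (R 4.3.3): TMM scaling, filterByExpr by group (22795 of 33602 loci kept, 5697 with no reads), 6 group means over all 18 libraries, robust quasi-likelihood dispersion (12 residual degrees of freedom) and Benjamini-Hochberg adjustment over all genes tested, with a threshold of 0.05. The 95% intervals came from the SE of each contrast. Alternatives used DESeq2 1.42.0, limma 3.58.1 (voom, and log2(RPKM + 0.5) or log2(RPKM + 0.1)), other scalings and filters, the 12 libraries alone, a replicate block, and each library left out in turn. The method was tested on simulated data. Replicates of a group differed well beyond counting noise. The p-values rest on a spread pooled over the 6 groups, ahl10-1 included, with any effect of the replicate number left in it.

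Members, gene lists and tests were chosen with earlier results of these data known. Genes named are the 6 with the smallest p in each direction, since none was called, up to 2 with the smallest p on each list, a fixed set of stress markers and RNA decay genes, and RRP6L1 and AHL10 with the neighbours of RRP6L1. Coordinates and upstream sequences come from RefSeq on TAIR10.1, and 32835 of the 33602 loci matched a locus tag. No gene was called, so motif shares of called genes could not be given.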

Additional observations from a re-analysis of the deposited data

Results flagged for a closer look

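AT1G54445, a locus next to RRP6L1 in number, lay below the filter on low counts and was in none of the comparisons. It had 61 reads over the 6 rrp6l1-2 libraries, 45 at control and 16 at stress, and 0 reads in every WT and ahl10-1 library, where 3 reads per library is the limit that a count of 0 allows. It was picked out because reads appeared in the mutant and not in the control genotype. Among the 10807 loci not tested, 22 had at least 10 reads in rrp6l1-2 and 0 in WT, and 26 had the reverse.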

How the results depend on the processing

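Of the 26 alternative analyses, the authors' deposited tables gave no test of the difference in response. In the others the count of genes called for it was 0, with these exceptions. DESeq2's Wald test gave 1 (AT2G07707, adjusted p = 0.000616), and leaving out each replicate gave 0 to 1. The 1 gene, AT5G39150, was called without rrp6l1-2 stress replicate 1 (difference -3.20, against -1.05 with all libraries). The labels do not say that a replicate number marks a shared experiment. Same-number libraries correlated above 0.1 in 11 of 18 cases (range -0.19 to 0.518). All 3 numbers did so in 3 of 6 pairs of groups. WT control with rrp6l1-2 control gave 0.48, 0.341 and 0.169, and with rrp6l1-2 stress 0.391, 0.298 and 0.337. Within rrp6l1-2, control with stress gave 0.518, 0.146 and 0.249. Within WT, control with stress gave -0.0717, -0.0264 and 0.0376, so pairing was not taken over all 4 groups. With the replicate block in 18 libraries 566 genes had an unadjusted p under 0.05 and 0 were called.

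Over the alternative analyses, 45 of 2602 values of named genes had the sign turned, with no call. In 9 of these the value was over 1 SE away or had no SE. Over the alternatives with a test, the difference ran from -0.76 to 2.79 for AT1G54410, from -6.43 to 3.25 for PDF1.2 and from -0.032 to 1.16 for CBP60G. It ran from -2.44 to 2.30 for PHE1, from -0.71 to 1.94 for CML37 and from -0.92 to 0.62 for LTP4. Turns within 1 SE included NCED3, from -0.41 to 0.41, and P5CS1, from -0.064 to 0.14. From the authors' deposited tables, whose fold changes are shrunk, RRP6L1 gave 0.0101, PDF1.2 0.0104 and AT1G54400 0.478, and AT1G54410 gave 8.27 (-8.33 at control and -0.061 at stress). The causes were not tested. The 48 genes called between the genotypes at control became 148 with the replicate block, 736 in the 12 libraries alone, 1107 in these with the block and 822 with DESeq2, and at stress the 19 became 55 with DESeq2. Depth limits genes under 1 CPM.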

Other observations

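Seed storage and maturation genes, 9 of 13 tested, summed to between 1.85 and 31.3 CPM over the 12 libraries, with the highest value in rrp6l1-2 control replicate 2.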
